A study of Mus musculus with 20 samples.

Results

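The small structural RNAs of the mouse hippocampus were examined in 20 RNA-seq libraries, as the genes annotated snoRNA, snRNA, scaRNA or misc_RNA whose raw counts summed to 50 or more over all libraries. This rule kept 126 of the 277 genes of these classes in a table of 25190 genes, namely 74 snoRNAs (small nucleolar RNAs), 23 snRNAs (small nuclear RNAs), 12 scaRNAs (small Cajal body-specific RNAs) and 17 genes of the class misc_RNA, which holds 7SK and Y RNAs. The RNAs were thus chosen by their summed counts, so their overall level is a description and not a finding. Just inside the threshold were Gm25266 with a sum of 51 counts, Gm22486 with 52 and Gm26448 with 52. Just outside it were Gm22362 with 49, Gm22063 with 48 and Gm27326 with 48. Judged by the same mean count per library, 4 of the 126 RNAs would have missed the threshold without the Vehicle libraries, 1 without the Control libraries, 3 without the Pool 1 libraries and 1 without the Pool 2 libraries.

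The mice were wild-type males of the strain C57BL/6JOlaHsd, 4 months old, and each group had 5 libraries. Vehicle mice were infused in the hippocampus with artificial cerebrospinal fluid and no RNA. Control mice were infused with human hippocampal sRNAs (small RNAs) of control individuals, combined into a single pool. The mice of Pool 1 and Pool 2 were infused with such pools from 2 separate cohorts of patients with schizophrenia. Tissue was taken 24 hours after the last behavioral test. All mice of a group received the same pool, so the comparisons are between pools and not between donors. The sample labels give hippocampal tissue and the design text gives CA1, a field of the hippocampus. The labels do not state that each library is a separate mouse, and p-values then measure the spread between these libraries.

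These RNAs are parts of ribonucleoprotein machines rather than messages. The snRNAs U1, U2, U4 and U6 form the core of the spliceosome, which removes introns. Box C/D snoRNAs guide the methylation of ribose in ribosomal RNA, box H/ACA snoRNAs guide the conversion of uridine to pseudouridine, and scaRNAs guide the same changes in snRNAs inside Cajal bodies. 7SK RNA holds the elongation kinase P-TEFb inactive together with the protein Hexim1, and Y RNAs are bound by the proteins Ro60 and La. Brain tissue carries snoRNAs of its own, such as those of the Snhg14 locus. Most of these RNAs end without a poly(A) tail, whereas the libraries were made from RNA selected for such tails. A finished RNA without a tail is counted only as far as it escaped that selection. Where an RNA lies inside another gene on its strand, its counts cannot tell it from unspliced RNA of that gene.

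The sequences of 10 of the RNAs are given because the results turn on how these species differ. They are the DNA letters of the GENCODE M21 transcripts, 5′ to 3′ on the strand of the RNA, and positions are in GRCm38. The first set holds the 3 RNAs that RNA polymerase III is known to transcribe and that varied most. Capitals mark each GATC in the first 110 bases of Rn7sk, the gene of 7SK RNA (chr9:78175303-78175633, minus strand, 331 bases), and the run TTTT at the end of the Y RNA genes Rny1 (chr6:47788069-47788180, minus strand) and Rny3 (chr6:47781624-47781725, plus strand). Over the 566 annotated misc_RNA genes, 60.6% hold GATC somewhere and 2.83% end in TTTT. The stretch of Rn7sk shown holds GATC 3 times.
Rn7sk: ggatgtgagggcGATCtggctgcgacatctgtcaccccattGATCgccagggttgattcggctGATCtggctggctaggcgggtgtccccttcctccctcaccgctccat
Rny1: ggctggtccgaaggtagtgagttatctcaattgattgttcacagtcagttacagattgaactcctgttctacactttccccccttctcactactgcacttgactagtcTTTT
Rny3: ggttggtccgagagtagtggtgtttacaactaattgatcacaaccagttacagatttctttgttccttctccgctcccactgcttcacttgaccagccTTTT

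The second set holds 3 snRNAs that varied with the first, with the letters ATTTNTG in capitals. These letters are those of the site to which the Sm proteins, the common ring of spliceosomal particles, bind in U1, U2 and U4. They occur in 20.5% of the 1383 annotated snRNA genes and in 6 of the 23 examined here, and were searched on the RNA strand only. Gm22513 (chr12:54696782-54696945, plus strand) was 99.4% identical to Rnu1a1, a U1 gene that pairs with the 5′ splice site, over 164 bases. Gm25939 (chr1:72255008-72255198, plus strand) was 98.4% identical to Rnu2-10, a U2 gene that pairs with the branch site, over 191 bases. Gm24265 (chr5:115489459-115489599, plus strand) opens with the letters known from U4, the snRNA that pairs with U6 before splicing starts. Of other annotated small RNA genes, 33 were at least 90% identical to Gm22513 over 90% of its length, 12 to Gm25939 and 2 to Gm24265. Reads that fit several such copies equally well are not counted by the counting used here, so the counts of these snRNAs are uncertain as levels of a single gene.
Gm22513: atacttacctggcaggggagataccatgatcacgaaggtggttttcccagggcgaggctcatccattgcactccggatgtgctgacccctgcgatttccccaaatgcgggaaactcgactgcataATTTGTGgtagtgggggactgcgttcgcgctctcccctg
Gm25939: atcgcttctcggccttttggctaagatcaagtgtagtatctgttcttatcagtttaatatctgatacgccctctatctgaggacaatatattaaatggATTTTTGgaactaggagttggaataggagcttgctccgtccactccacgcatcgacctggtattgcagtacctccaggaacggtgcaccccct
Gm24265: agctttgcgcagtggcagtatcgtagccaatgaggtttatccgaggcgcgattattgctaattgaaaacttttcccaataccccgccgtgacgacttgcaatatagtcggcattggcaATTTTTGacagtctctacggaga

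The third set shows 2 snoRNAs that were higher in Pool 1 than in Control mice and 2 abundant RNAs that did not pass the threshold in any comparison. Snord17 (chr2:144265979-144266216, minus strand) lies in an intron of Snx5 and has its box C (TGATGA) and box D (CTGA) in capitals. Snora73b (chr4:132352322-132352526, minus strand), also called U17 and needed for cleavage of the ribosomal RNA precursor, lies in an intron of Rcc1 and has the ACA 3 bases from its end in capitals. Snora73a was 98% identical to it over 202 bases, so the counts of this pair are uncertain. Snord104 (chr11:106500993-106501062, plus strand) is a short box C/D snoRNA with no annotated host on its strand. Gm25047 (chrX:36363899-36364002, plus strand) is an snRNA 79.6% identical to Rnu6, a U6 gene, over an alignment of 108 columns, and its last TTT is in capitals. Of 1507 annotated snoRNA genes, 20.5% hold both boxes near their ends and 18.3% hold the terminal ACA. The terminal TTT is found in 38.3% of the annotated snRNA genes.
Snord17: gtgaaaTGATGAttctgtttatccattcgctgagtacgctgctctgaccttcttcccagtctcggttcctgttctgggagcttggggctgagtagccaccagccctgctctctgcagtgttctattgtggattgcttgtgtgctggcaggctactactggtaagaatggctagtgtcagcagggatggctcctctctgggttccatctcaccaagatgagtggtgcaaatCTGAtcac
Snora73b: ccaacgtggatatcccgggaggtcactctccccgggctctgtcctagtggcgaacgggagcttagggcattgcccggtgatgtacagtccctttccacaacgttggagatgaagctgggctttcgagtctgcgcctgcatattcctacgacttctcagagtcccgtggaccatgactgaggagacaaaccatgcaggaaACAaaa
Snord104: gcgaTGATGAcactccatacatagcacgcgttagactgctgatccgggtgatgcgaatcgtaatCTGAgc
Gm25047: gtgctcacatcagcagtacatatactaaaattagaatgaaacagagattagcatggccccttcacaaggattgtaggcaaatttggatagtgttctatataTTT

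Total counts of the libraries lay between 20588280 and 25543939, and 3 counts correspond to 0.117 to 0.146 CPM (counts scaled to the library total, with TMM factors of 0.9651 to 1.0435). The 126 RNAs held 31281 counts, 0.0067% of all counts, and Rn7sk alone held 38.1% of these. The list of 10 markers of hippocampal neurons was measured in full and summed to 1080 to 1660 CPM per library. Markers of neighbouring tissue differed more between libraries, from 98.8 to 9100 CPM for 8 choroid plexus genes and from 92.8 to 508 CPM for 8 thalamus genes. One library stood apart for the small RNAs, replicate 1 of Pool 1, which was the highest of the 20 for 28 of the 126 RNAs. For single RNAs higher in Pool 1 than in Control mice, the log2 fold change is given with and without it. The class shares and class sums of Pool 1 include it. Marker genes of other cells also differed between groups, with sums that were far higher in single libraries. The microglia genes summed to 1570 CPM in Pool 2 replicate 1 and to 468 to 734 CPM in the other Pool 2 libraries, beside 444 to 680 CPM in Control. The thalamus genes summed to 508 CPM in Pool 2 replicate 4 and 122 to 304 CPM in the others, beside 112 to 234 CPM in Control. The choroid plexus genes reached 9100 CPM in Vehicle replicate 4 and 217 to 1250 CPM in the other Vehicle libraries. Of 10 microglia genes 5 were higher in Pool 2 than in Control and of 8 thalamus genes 3 were, beside 5.2% of all genes. Of the 8 choroid plexus genes 4 were lower in Control than in Vehicle, beside 3.41% of all genes. Against Vehicle, 8 of 8 choroid plexus genes were lower in Pool 1 and 5 of 8 in Pool 2, beside 4.28% and 1.89% of all genes. Between the pools, 8 of 8 thalamus genes and 8 of 10 microglia genes were higher in Pool 2, beside 5.66% of all genes. The part of these marker genes in the results below was not tested. In bulk tissue, fewer cells of a type and less RNA per cell cannot be told apart.

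Across single libraries the small RNAs fell into a few that varied by large factors and many that were close to counting noise. The measure was the dispersion index, the chi-square of the 20 counts of a gene against equal shares of each library, divided by its degrees of freedom, so that pure counting noise gives about 1. The median index was 1.76 over the 126 RNAs, and 19 of them exceeded 3. Without the 5 most abundant, the other 121 RNAs had a median of 1.73, with 15 over 3. The 2346 protein-coding genes with sums in the same range had a median of 2.27, with 817 over 3, so single small RNAs were not generally more variable than messages counted as sparsely. The exceptions were Rn7sk with an index of 699, Rny1 with 95.1, Rny3 with 31.1, Gm24265 with 20.3, Gm22513 with 16.8, Snord17 with 12.4 and the scaRNA Gm25395 with 11.8. Of the 19 RNAs over 3, 15 were highest in the same library, Pool 1 replicate 1, and 11 were lowest in a Control library. Of these 19, 7 were among the 24 RNAs with no host gene, 12 among the 95 inside an intron and none among the 7 that overlapped an exon.

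Rn7sk was the most abundant and the most variable of the RNAs. Its level was 34.5, 41.3, 1.94, 4.69 and 8.15 CPM in Vehicle replicates 1 to 5, and 5.9, 1.31, 5.11, 3.42 and 8.62 CPM in Control replicates 1 to 5. In Pool 1 replicates 1 to 5 it was 115 (2852 counts), 11.5, 12.4, 48 and 19.9 CPM, and in Pool 2 replicates 1 to 5 it was 49.8, 22.2, 22.4, 54.8 and 33.7 CPM. Every Pool 1 and Pool 2 library lay above every Control library, while 2 Vehicle libraries lay among those of the pools and the other 3 among those of Control. Over the 20 libraries the highest level was 88.1 times the lowest. Mean levels were 18.1 ± 18.4 CPM in Vehicle, 4.87 ± 2.74 in Control, 41.4 ± 43.9 in Pool 1 and 36.6 ± 15.2 in Pool 2 mice (SD, n = 5).

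Against Control, Rn7sk in Pool 1 mice had a log2 fold change of 3.10 ± 0.85 (SE, unadjusted p = 0.00212, adjusted p = 0.917, edgeR's quasi-likelihood test with Benjamini-Hochberg adjustment over all genes). In Pool 2 mice it was 2.92 ± 0.85 (SE, unadjusted p = 0.00326, adjusted p = 0.479). Both passed the threshold used here, which asks for a log2 fold change of 0.3 or more in size and an unadjusted p under 0.05, and neither had an adjusted p under 0.05. The exact two-sided permutation test of log2 CPM gave p = 0.00794 for each pool, the smallest p that 5 against 5 libraries allow. It was 0.152 after adjustment over the 192 tests of this kind. These tests covered a list of named RNAs, part of it added because its members had passed the threshold in these data. The adjustment therefore does not extend to the RNAs left untested. Without Pool 1 replicate 1, the log2 fold change in Pool 1 was 2.25 ± 0.78 (SE, unadjusted p = 0.0113). Control mice were in turn lower than Vehicle mice, by a log2 fold change of -1.90 ± 0.84 (SE, unadjusted p = 0.0365, adjusted p = 0.739). That call was lost on leaving out Vehicle replicate 1 or 2 or any of Control replicates 1 to 4, with values from -2.21 to -1.35 over all single omissions.

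The Y RNAs, like Rn7sk, were highest in Pool 1 replicate 1. Rny1 had 53, 124, 20, 10 and 26 counts in the Vehicle libraries and 21, 6, 22, 3 and 35 in the Control libraries. It had 347, 29, 50, 113 and 32 counts in Pool 1 and 83, 46, 51, 225 and 76 in Pool 2. All Pool 2 libraries lay above all Control libraries, and 3 of the 5 Pool 1 libraries did. Its log2 fold change against Control was 2.66 ± 0.85 in Pool 1 and 2.41 ± 0.85 in Pool 2 mice (SE, unadjusted p = 0.00602 and 0.0111, adjusted p = 0.917 and 0.506, edgeR). Without Pool 1 replicate 1 it was 1.70 ± 0.77 in Pool 1 (SE, unadjusted p = 0.0414).

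Rny3 was about as variable at a lower level. It had 28, 52, 14, 5 and 5 counts in Vehicle, 5, 0, 10, 2 and 5 in Control, 119, 12, 14, 29 and 15 in Pool 1 and 27, 9, 19, 56 and 19 in Pool 2 libraries. All Pool 1 libraries exceeded all Control libraries, and 4 of the 5 Pool 2 libraries did. The log2 fold change against Control was 3.03 ± 0.86 in Pool 1 and 2.5 ± 0.88 in Pool 2 mice, and that of Control against Vehicle was -2.19 ± 0.89 (SE, unadjusted p = 0.00243, 0.0104 and 0.0234, adjusted p = 0.917, 0.504 and 0.734, edgeR). The last of these calls was lost without Vehicle replicate 2, Control replicate 2 or Control replicate 4. Without Pool 1 replicate 1 the value in Pool 1 was 1.99 ± 0.76 (SE, unadjusted p = 0.0172). The proteins that bind Y RNAs did not pass the threshold. Ro60 had log2 fold changes against Control of -0.09 ± 0.24 in Pool 1 and -0.13 ± 0.24 in Pool 2 mice, and Ssb, which encodes La, had -0.18 ± 0.10 and -0.17 ± 0.10 (SE).

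**Figure D1:**
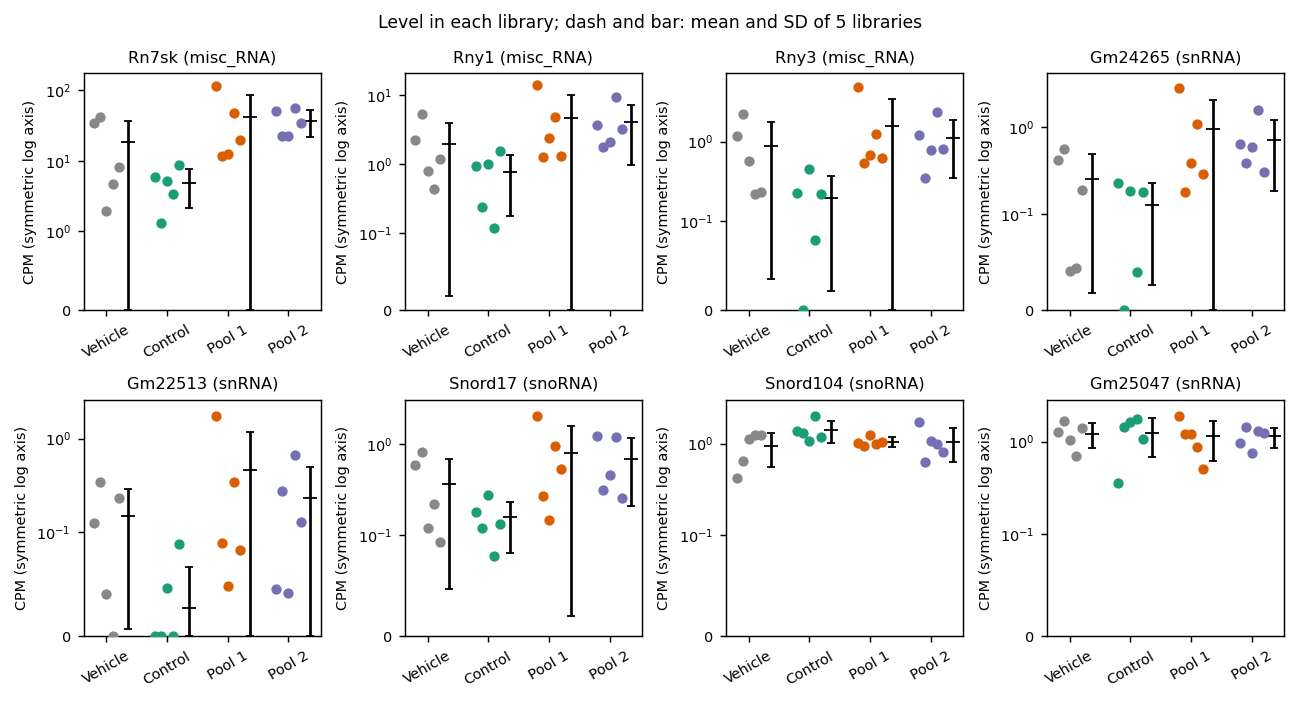
Level of 8 RNAs in each library on a symmetric log axis in CPM, by group, with the mean and SD of 5 libraries beside the points and bars cut at 0. Rn7sk, Rny1, Rny3, Gm24265, Gm22513 and Snord17 have their highest value in Pool 1 replicate 1 and split the Vehicle libraries. Of these, Rn7sk alone is above all Control libraries in every library of both pools. For Snord104 and Gm25047 the groups overlap in every comparison.

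Among the spliceosomal snRNAs, 1 copy each of U1, U2 and U4 type was past the threshold against Control in both pools. The abundant U6-like Gm25047 was not. Gm23318, 88.5% identical to Rnu6 over an alignment of 78 columns, passed in Pool 2 against Control only and was named after its values were seen. Another U2 copy, Gm24497, named after its values were seen, had a dispersion index of 1.48 and did not pass in any comparison. The U4-type Gm24265 had 10, 13, 1, 1 and 4 counts in Vehicle, 5, 0, 4, 1 and 4 in Control, 69, 4, 8, 25 and 7 in Pool 1 and 14, 10, 14, 38 and 7 in Pool 2 libraries. Every Pool 2 library was above every Control library, and 4 of 5 Pool 1 libraries were. Its log2 fold change against Control was 2.92 ± 0.84 in Pool 1 and 2.48 ± 0.86 in Pool 2 mice (SE, unadjusted p = 0.0024 and 0.00904, adjusted p = 0.917 and 0.486, edgeR), and 1.96 ± 0.77 in Pool 1 without its replicate 1 (SE, unadjusted p = 0.0191). Against Vehicle it was higher in Pool 1 by a log2 fold change of 1.91 ± 0.76 (SE, unadjusted p = 0.0206, adjusted p = 0.687). That difference was 0.94 ± 0.70 without Pool 1 replicate 1 (SE, unadjusted p = 0.195).

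The U1-type Gm22513 rested on few counts. This RNA and Gm25939 were named after their values were seen. Gm22513 had 3, 8, 1, 0 and 5 counts in Vehicle, 0, 0, 1, 0 and 2 in Control, 43, 2, 1, 8 and 2 in Pool 1 and 1, 7, 1, 16 and 3 in Pool 2 libraries. The groups overlapped, and 43 of the 56 counts of Pool 1 came from replicate 1. With 3 counts in all of Control, the ratio of counts over the library totals was 18.7 in Pool 1 (exact 95% interval 6.08 to 93.5, counting error only) and 9.33 in Pool 2 (2.88 to 47.9). The fitted log2 fold change of Pool 1 was 3.93 ± 1.19 (SE, unadjusted p = 0.00354, adjusted p = 0.917, edgeR) and fell short of the threshold without replicate 1, at 2.25 ± 1.11 (SE, unadjusted p = 0.0534). That of Pool 2 was 2.94 ± 1.28 (SE, unadjusted p = 0.0321, adjusted p = 0.595) and fell short without Pool 2 replicate 4 or without Control replicate 1, 2 or 4.

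The U2-type Gm25939 had 6, 21, 3, 2 and 5 counts in Vehicle, 2, 0, 3, 2 and 3 in Control, 24, 2, 8, 12 and 7 in Pool 1 and 17, 8, 4, 10 and 5 in Pool 2 libraries. Each Pool 2 library was above each Control library. Log2 fold changes against Control were 2.33 ± 0.71 in Pool 1 and 2.06 ± 0.72 in Pool 2 mice (SE, unadjusted p = 0.00299 and 0.00856, adjusted p = 0.917 and 0.486, edgeR), and 1.84 ± 0.73 in Pool 1 without replicate 1 (SE, unadjusted p = 0.0188). In Control it was lower than in Vehicle mice by a log2 fold change of -1.83 ± 0.73 (SE, unadjusted p = 0.0192, adjusted p = 0.734), where Vehicle replicate 2 held 21 of the Vehicle counts. Without that library the value was -0.96 and the call was lost.

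The most abundant snRNAs did not pass the threshold. Gm25047, with a dispersion index of 3.32, had 30, 38, 26, 16 and 30 counts in Vehicle, 8, 36, 35, 44 and 24 in Control, 47, 27, 25, 20 and 12 in Pool 1 and 21, 37, 18, 31 and 29 in Pool 2 libraries. Its means were 1.21 ± 0.357, 1.24 ± 0.557, 1.14 ± 0.519 and 1.14 ± 0.278 CPM in this order of groups (SD, n = 5), which differed by less than the spread within a group. Gm24060, in an intron of Cyth1, had means of 0.776 ± 0.238, 0.572 ± 0.419, 0.780 ± 0.245 and 0.767 ± 0.322 CPM (SD, n = 5) and did not pass the threshold in any comparison either.

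The scaRNAs included the smallest p-values of the set. Scarna2, an independently transcribed guide for the methylation of U2 snRNA, had 4, 2, 1, 2 and 0 counts in Vehicle, 1, 0, 1, 0 and 0 in Control, 16, 5, 1, 5 and 4 in Pool 1 and 5, 4, 9, 11 and 5 in Pool 2 libraries. Each Pool 2 library held at least 4 counts against at most 1 in Control, and in Pool 1 the lowest library, with 1 count, was barely above Control after scaling (0.0485 against 0.046 CPM). With 2 counts in all of Control, the ratio of counts over the library totals was 15.5 in Pool 1 (exact 95% interval 3.95 to 134, counting error only) and 17 in Pool 2 (4.36 to 146). The fitted log2 fold changes were 3.58 ± 0.83 and 3.69 ± 0.82 (SE, unadjusted p = 0.000225 and 0.000143, adjusted p = 0.917 and 0.408, edgeR). Without Pool 1 replicate 1 the value in Pool 1 was 2.92 ± 0.83 (SE, unadjusted p = 0.00193, edgeR). Scarna2 was also above Vehicle, by 1.70 ± 0.66 in Pool 1 and 1.82 ± 0.65 in Pool 2 mice (SE, unadjusted p = 0.0162 and 0.0103, adjusted p = 0.654 and 0.886). The first of these fell short of the threshold without Pool 1 replicate 1, at 1.04 ± 0.68 (SE, unadjusted p = 0.137).

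Gm22009, a scaRNA of 343 bases in an intron of the importin gene Kpna4, did not have its highest value in Pool 1 replicate 1. It had 22, 17, 2, 6 and 10 counts in Vehicle, 3, 9, 2, 5 and 4 in Control, 25, 11, 10, 11 and 32 in Pool 1 and 14, 20, 30, 18 and 9 in Pool 2 libraries. All libraries of both pools lay above all Control libraries in CPM. The log2 fold change against Control was 1.94 ± 0.50 in each pool (SE, unadjusted p = 0.000754 and 0.000749, adjusted p = 0.917 and 0.445, edgeR), and 1.82 ± 0.53 in Pool 1 without replicate 1 (SE, unadjusted p = 0.00242). Control was lower than Vehicle by -1.32 ± 0.52 on the log2 scale (SE, unadjusted p = 0.0184, adjusted p = 0.734), a call that was lost without Vehicle replicate 1 or 2. The other abundant scaRNAs did not pass the threshold in any comparison. Gm25492, in an intron of Bud23, had means of 0.684 ± 0.248, 0.589 ± 0.260, 0.498 ± 0.322 and 0.722 ± 0.250 CPM in Vehicle, Control, Pool 1 and Pool 2, and Gm22442, in an intron of Chd3, had 0.504 ± 0.318, 0.449 ± 0.233, 0.743 ± 0.324 and 0.695 ± 0.319 CPM (SD, n = 5). Scarna13, which shares the Snhg10 locus and overlaps Mir3069, had 2 to 8 counts in every library.

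Snord17, a long box C/D snoRNA of 238 bases, had the highest dispersion index of the snoRNAs. It had 14, 19, 3, 5 and 2 counts in Vehicle, 4, 3, 6, 2 and 3 in Control, 51, 6, 3, 22 and 13 in Pool 1 and 27, 8, 11, 29 and 6 in Pool 2 libraries. In CPM, 4 of 5 Pool 2 libraries and 3 of 5 Pool 1 libraries lay above all Control libraries. Log2 fold changes against Control were 2.33 ± 0.72 in Pool 1 and 2.12 ± 0.72 in Pool 2 mice (SE, unadjusted p = 0.00368 and 0.0079, adjusted p = 0.917 and 0.486, edgeR), and 1.60 ± 0.68 in Pool 1 without replicate 1 (SE, unadjusted p = 0.0277). Snora73b was less variable. It had 18, 15, 8, 5 and 8 counts in Vehicle, 9, 3, 5, 7 and 12 in Control, 27, 7, 4, 26 and 23 in Pool 1 and 13, 6, 13, 14 and 7 in Pool 2 libraries. It passed the threshold in Pool 1 only, at a log2 fold change of 1.25 ± 0.47 against Control (SE, unadjusted p = 0.0133, adjusted p = 0.917), where its value in Pool 2 was 0.53, and the groups overlapped. Without Pool 1 replicate 1 the value of Snora73b in Pool 1 was 1.06 ± 0.49 (SE, unadjusted p = 0.0422, edgeR).

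Another 3 intronic snoRNAs were past the threshold in Pool 1 against Control, each named after its values were seen. They were Gm25835 in Eif4a1 with a log2 fold change of 1.11 ± 0.47, Gm25117 in Nap1l1 with 0.89 ± 0.42 and Gm26493 in Cnot1 with 1.30 ± 0.63 (SE, unadjusted p = 0.0248, 0.0465 and 0.0494, adjusted p = 0.917, edgeR). All 3 were highest in Pool 1 replicate 1, with 32, 25 and 23 counts against at most 12 in any Control library. Without that library none of the 3 passed, at 0.75, 0.63 and 0.71 (unadjusted p = 0.128, 0.17 and 0.282). In Pool 2 their values were 0.53, 0.20 and 0.37. A further 2 RNAs passed in Pool 2 against Control, the snRNA Gm23318 in an intron of Mtor with 1.17 ± 0.49 and the snoRNA Gm25632 in an intron of Prrc2b with 1.15 ± 0.49 (SE, unadjusted p = 0.0257 and 0.0267, adjusted p = 0.58). Each of these 2 calls was lost on leaving out single libraries, that of Gm23318 without Pool 2 replicate 1 or 2 or Control replicate 1 or 2, and that of Gm25632 without Pool 2 replicate 4 or Control replicate 1 or 3.

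The RNAs that were lower in a pool than in Control mice were snoRNAs with few counts. Snord89 had 12, 5, 11, 7 and 10 counts in Vehicle, 8, 17, 11, 8 and 16 in Control, 8, 4, 4, 7 and 1 in Pool 1 and 7, 12, 6, 8 and 4 in Pool 2 libraries. It was lower in Pool 1 than in Control by a log2 fold change of -1.28 ± 0.41 and than in Vehicle by -0.88 ± 0.42 (SE, unadjusted p = 0.00452 and 0.0459, adjusted p = 0.917 and 0.77, edgeR). In Pool 2 against Control, Snord98 had a log2 fold change of -1.43 ± 0.65 and Gm23301, in an intron of the ribosomal protein gene Rpl17, had -1.10 ± 0.46 (SE, unadjusted p = 0.0385 and 0.024, adjusted p = 0.619 and 0.578). Snord98 had 3, 10, 8, 10 and 2 counts in Control and 3, 6, 0, 1 and 2 in Pool 2 libraries, which overlapped. Its call was lost on leaving out any of 6 libraries, and that of Gm23301 on leaving out Control replicate 5 or Pool 2 replicate 2 or 5. The call of Snord89 against Vehicle was lost without any of 8 libraries, and that against Control was kept in each case. These 3 RNAs were named after their values were seen.

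The most abundant snoRNAs did not pass the threshold in any comparison. Gm25129, a snoRNA in an intron of the neuronal transcript Snhg11, had means of 1.66 ± 0.757, 1.77 ± 0.690, 1.70 ± 0.560 and 1.79 ± 0.670 CPM in Vehicle, Control, Pool 1 and Pool 2 (SD, n = 5). Gm24966, one of many near copies in Snhg14, the long transcript of the imprinted Prader-Willi region, had 1.70 ± 0.613, 1.78 ± 0.294, 1.57 ± 0.638 and 1.76 ± 0.393 CPM, and 63 other annotated genes were at least 90% identical to it. Snord104 had 0.937 ± 0.379, 1.40 ± 0.375, 1.05 ± 0.124 and 1.05 ± 0.422 CPM. For Snord104 the exact permutation test of Pool 1 against Control gave p = 0.0397, and 0.293 after adjustment over the 192 tests, with 4 of 5 Pool 1 libraries below all Control libraries. Rnu73b, in an intron of Rps3a1, had 2 to 13 counts per library and passed in no comparison. Among the misc_RNA genes, Gm25082, which overlaps an exon of Clk4 and was 77.8% identical to Rn7sk over 162 columns, had 1.40 ± 0.339, 1.01 ± 0.232, 1.39 ± 0.487 and 1.36 ± 0.355 CPM, a narrower range than that of Rn7sk.

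**Figure D2:**
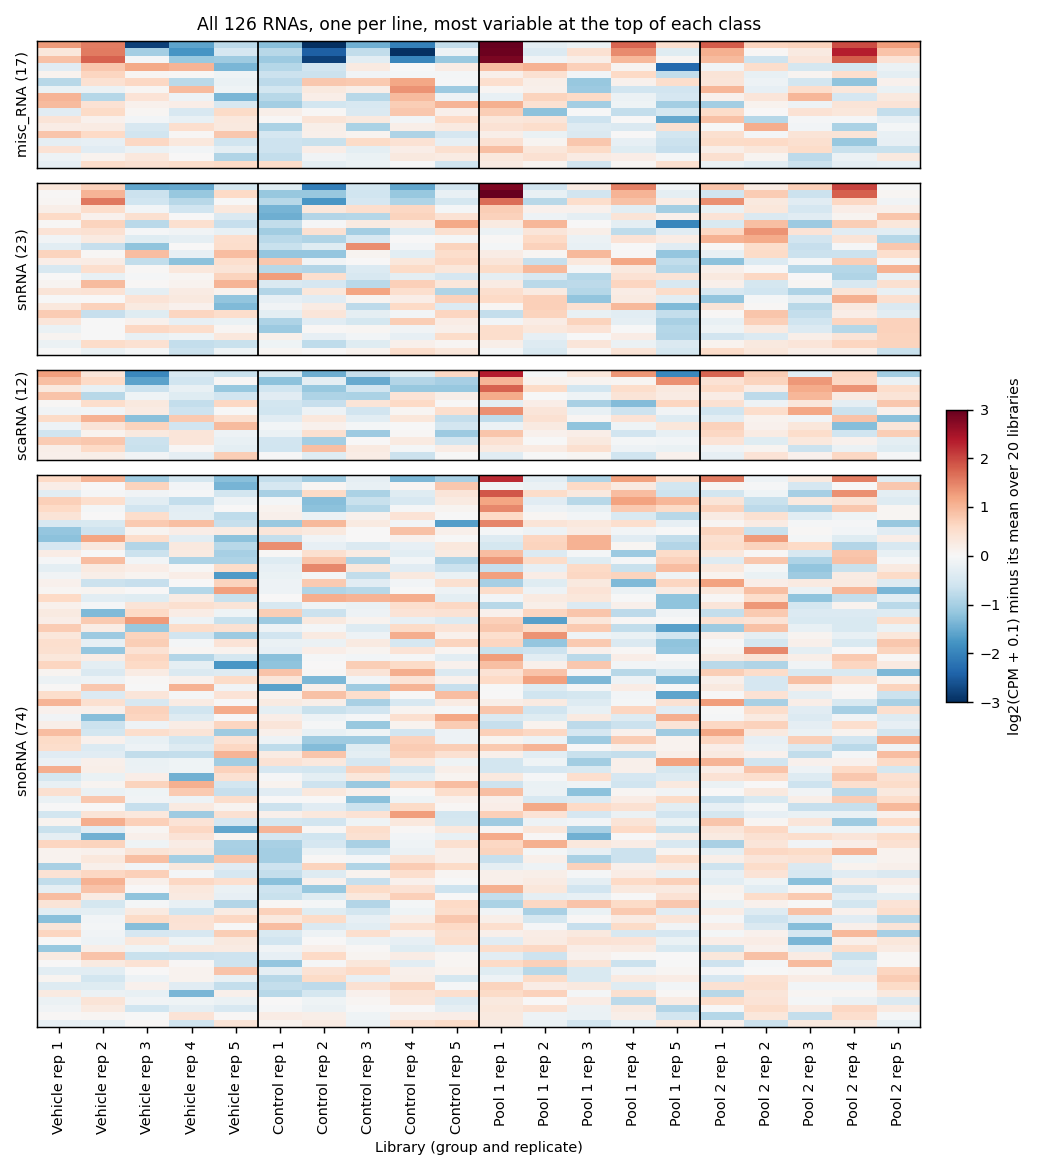
Each line is 1 of the 126 RNAs and each column 1 library, with the colour giving log2(CPM + 0.1) minus the mean of that RNA over the 20 libraries, by class and with the highest dispersion index at the top. The first line of each class is highest in Pool 1 replicate 1, while most of the 74 snoRNAs show no block of colour by group.

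Counted over the classes, more of the RNAs were higher in the pools than in Control mice. In Pool 1 against Control, 13 of the 126 RNAs were higher and 1 lower, against 1.48% of all 25190 genes higher and 1.99% lower (3.48% in either direction, and 5.22% at an unadjusted p under 0.05 alone). The 13 made up 10.3% of the RNAs. In Pool 2 against Control, 11 were higher and 2 lower, against 5.2% of all genes higher and 1.01% lower (6.22% in either direction, and 7.7% at an unadjusted p under 0.05 alone), and the 11 made up 8.73% of the RNAs. The 13 in Pool 1 were Rn7sk, Rny1, Rny3, Gm24265, Gm22513, Gm25939, Scarna2, Gm22009, Snord17, Snora73b, Gm25835, Gm25117 and Gm26493. The 11 in Pool 2 were the first 9 of these with Gm23318 and Gm25632. Both comparisons use the same Control libraries. In edgeR no gene of the table, and so none of the RNAs, had an adjusted p under 0.05. In DESeq2 7 genes did in Pool 1 and 18 in Pool 2, none of them among the RNAs, where the smallest adjusted p was that of Rn7sk, 0.0531 in Pool 1 and 0.0586 in Pool 2. For Pool 1, DESeq2 gave an adjusted p to Rn7sk, Rny1 and Rny3 but not to Scarna2, Gm22009, Gm24265, Gm22513, Gm25939 or Snord17. With an unadjusted p under 0.05, 14 RNAs in Pool 1 and 13 in Pool 2 differed in edgeR, and as many in DESeq2. Without Pool 1 replicate 1, 10 RNAs were higher in Pool 1 and 2 lower, where 1020 of all 25190 genes passed in either direction.

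Fewer RNAs had groups whose libraries did not overlap. Against Control, 4 RNAs were above in every Pool 1 library (Rny3, Rn7sk, Scarna2 and Gm22009), where 0.512% of all genes were. In Pool 2 there were 7 (Rn7sk, Rny1, Scarna2, Gm22009, Gm25939, Gm24265 and Snora23), where 0.77% of all genes were. Snora23 was named after its values were seen. No RNA was below Control in every library of Pool 1 or Pool 2, against 0.349% and 0.282% of all genes. In Control against Vehicle the snRNA Gm23458, named after its values were seen, was above in every library and none was below, against 0.206% and 0.401% of all genes. None of the RNAs was wholly above or below in Pool 1 against Vehicle (0.258% and 0.639% of all genes), in Pool 2 against Vehicle (0.401% and 0.349%) or in Pool 2 against Pool 1 (0.977% and 0.433%).

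The comparison of Control with Vehicle mice, which asks what the infusion of control sRNAs changes, gave a share near that of all genes. None of the RNAs was higher and 5 were lower, against 1.7% of all genes higher and 3.41% lower (5.1% in either direction, and 6.64% at an unadjusted p under 0.05 alone). The 5 made up 3.97% of the RNAs. They were Rn7sk, Rny3, Gm22009, Gm25939 and Vis1, a misc_RNA with 85 counts and a log2 fold change of -1.09 ± 0.48 (SE, unadjusted p = 0.0335, adjusted p = 0.739), named after its values were seen. This count depended on single libraries. It was 0 without Vehicle replicate 2, 3 without Control replicate 2, 8 without Vehicle replicate 4 and 9 without Vehicle replicate 5. The count over all 25190 genes changed as well, to 976, 955, 1124 and 1792 in this order.

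Against Vehicle the pools differed in few of the RNAs. In Pool 1 against Vehicle 3 were higher (Scarna2, Gm24265 and Gm26493) and 2 lower (Snord89 and Gm24727), against 1.06% of all genes higher and 4.28% lower (5.34% in either direction, and 6.36% at an unadjusted p under 0.05 alone). In Pool 2 against Vehicle 1 was higher (Scarna2) and 1 lower (Gm25706), against 2.8% of all genes higher and 1.89% lower (4.69% in either direction, and 5.5% at an unadjusted p under 0.05 alone). Between the pools, Snora34 alone was past the threshold, higher in Pool 2 than in Pool 1 by a log2 fold change of 1.60 ± 0.67 (SE, unadjusted p = 0.0253, adjusted p = 0.499), against 5.66% of all genes higher and 1.16% lower (6.82% in either direction, and 8.52% at an unadjusted p under 0.05 alone). Snora34 had 13 counts in Pool 2 replicate 2 and 6 or fewer in every other library, and without that library its value was 1.04 and the call was lost. It overlaps Mir1291, so reads of the pair cannot be told apart. Without Pool 1 replicate 1, Snord89 alone of the 5 named for Pool 1 against Vehicle kept its call. Snora34, Gm24727 and Gm25706 were named after their values were seen. Gm24727 is also 1 of the 4 RNAs that would have missed the threshold of counts without the Vehicle libraries. The rule thus favoured a lower value of Gm24727 in Pool 1 than in Vehicle, and its call is no support for a difference.

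By class, the share of RNAs past the threshold against Control was 8.11% for snoRNA, 13% for snRNA, 16.7% for scaRNA and 17.6% for misc_RNA in Pool 1, beside 3.48% of all genes. In Pool 2 it was 5.41%, 17.4%, 16.7% and 17.6% in this order, beside 6.22%. Against Vehicle the order was another. In Pool 1 the share was 4.05% for snoRNA (3 of 74), 4.35% for snRNA (1 of 23), 8.33% for scaRNA (1 of 12) and 0% for misc_RNA (0 of 17), beside 5.34% of all genes. The 3 snoRNAs include Gm24727, which was kept by the rule only through the Vehicle libraries. In Pool 2 against Vehicle it was 0%, 0%, 8.33% and 5.88% in this order, beside 4.69%. In Pool 1 against Control, 3 of 17 misc_RNAs, 3 of 23 snRNAs, 2 of 12 scaRNAs and 5 of 74 snoRNAs were higher, and 1 snoRNA was lower. In Pool 2 against Control, 3 misc_RNAs, 4 snRNAs, 2 scaRNAs and 2 snoRNAs were higher and 2 snoRNAs lower. The median log2 fold change in Pool 1 was 0.30 for misc_RNA, 0.06 for snRNA, 0.65 for scaRNA and 0.11 for snoRNA, beside -0.01 over all genes. In Pool 2 it was 0.11, 0.12, 0.56 and 0.15 in this order, beside 0.00 over all genes, and in Control against Vehicle it was -0.27, -0.24, -0.52 and 0.00, beside -0.01. Of the 12 scaRNAs, 10 were above 0 in Pool 1, 11 in Pool 2 and 1 in Control against Vehicle. Of all 25190 genes, 12306, 12759 and 11797 were above 0 in this order. Each of these comparisons uses the same Control libraries, so the counts of scaRNAs are not independent. Between replicates the class median varied by an SD of 0.264 for scaRNA, 0.137 for snoRNA, 0.324 for snRNA and 0.323 for misc_RNA on the log2 scale. Without Pool 1 replicate 1 the scaRNA median in Pool 1 was 0.31.

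**Figure D3:**
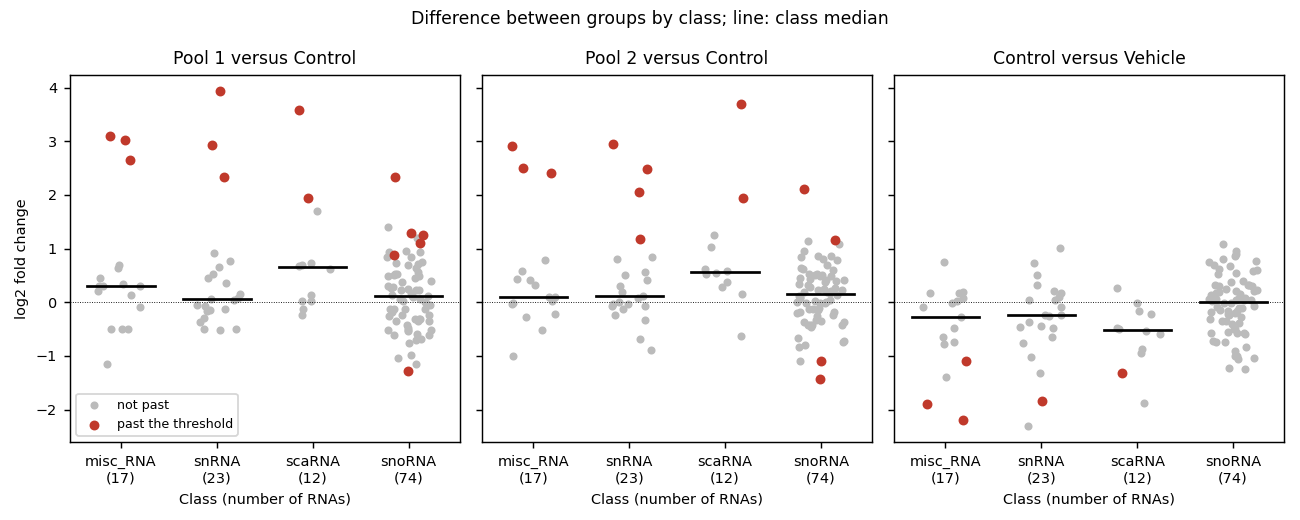
Log2 fold change of each RNA by class for 3 comparisons, with RNAs past the threshold in red and the class median as a line. The red points above 2 come from misc_RNA, snRNA, scaRNA and a single snoRNA, and in Control versus Vehicle the red points lie below 0.

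The summed levels of the classes showed the same contrast between libraries. The 74 snoRNAs summed to 21.2 ± 2.00 CPM in Vehicle, 21.3 ± 3.21 in Control, 23 ± 4.24 in Pool 1 and 22.6 ± 2.91 in Pool 2 mice (SD, n = 5), and their highest library was 1.74 times the lowest. The 23 snRNAs summed to 6.93 ± 1.38, 6.10 ± 1.69, 7.87 ± 3.35 and 7.71 ± 1.64 CPM and the 12 scaRNAs to 3.66 ± 1.12, 2.65 ± 0.519, 4.36 ± 1.65 and 4.45 ± 0.791 CPM in the same order. The lowest Pool 2 library for scaRNAs (3.78 CPM) was above the highest Control library (3.38 CPM). The 17 misc_RNAs summed to 25.9 ± 21.3, 10 ± 3.44, 52.4 ± 51.8 and 46.2 ± 18.8 CPM, a range of 25.8 times between libraries, and Rn7sk made up 75.2% of their counts. Without Rn7sk they summed to 7.77 ± 3.37, 5.16 ± 1.14, 11 ± 8.12 and 9.66 ± 3.85 CPM. These sums are counts and not corrected for length.

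Genes that collect reads of ribosomal RNA, which also lacks a poly(A) tail, moved between the same libraries. Gm42418, which lies over a ribosomal RNA repeat, was at 4400 and 4340 CPM in Vehicle replicates 1 and 2 and at 544, 1180 and 1630 CPM in Vehicle replicates 3 to 5. It was at 470 to 1560 CPM in Control, at 12400, 1510, 1780, 5460 and 9610 CPM in Pool 1 replicates 1 to 5, and at 2960 to 8310 CPM in Pool 2 libraries. Its log2 fold change against Control was 2.64 ± 0.66 in Pool 1 and 2.52 ± 0.66 in Pool 2 mice (SE, unadjusted p = 0.00105 and 0.00147, adjusted p = 0.917 and 0.468, edgeR). Gm26917 and Lars2, whose models include ribosomal RNA-like sequence, had 2.08 ± 0.59 and 2.10 ± 0.58 in Pool 1 and 2.29 ± 0.59 and 2.16 ± 0.58 in Pool 2 mice (SE), all past the threshold. The mitochondrial ribosomal RNAs, mt-Rnr1 and mt-Rnr2, did not pass it in either. The match between libraries was not complete, since Pool 1 replicate 5 had the second highest Gm42418 of all libraries but 19.9 CPM of Rn7sk and 1.33 CPM of Rny1. The part of ribosomal RNA carry-over in the differences of the small RNAs was not tested. The 3 replication-dependent histone genes in the table, whose messages also lack a tail, were at 0 to 0.476 CPM in sum, too low to compare.

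**Figure D4:**
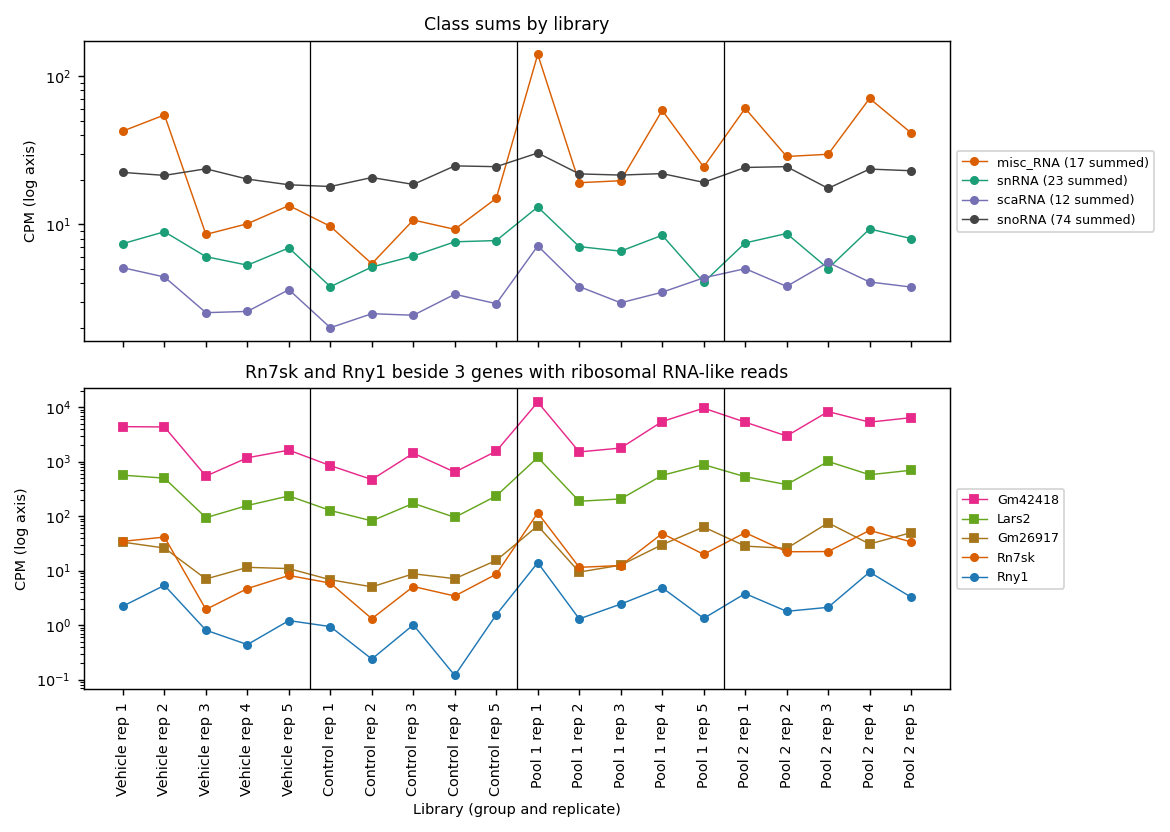
CPM on a log axis in each of the 20 libraries, above for the sums of the 4 classes and below for Rn7sk and Rny1 beside Gm42418, Lars2 and Gm26917. The misc_RNA sum and all 5 genes are high in Vehicle replicates 1 and 2 and highest or nearly so in Pool 1 replicate 1, while the snoRNA sum stays between 17.5 and 30.3 CPM.

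Of the 126 RNAs, 95 lay in an intron of another gene on their strand, 24 had no such host and 7 overlapped an exon. In Pool 1 against Control, 6 of the 24 without a host were higher, 7 of the 95 intronic RNAs were higher and 1 lower, and none of the 7 over an exon passed. In Pool 2 these counts were 6 of 24, then 5 higher and 2 lower of 95, and none of 7. By length, none of the 31 RNAs under 100 bases passed in Pool 1, where 13 of the 95 longer ones were higher and 1 lower. In Pool 2, 1 of the 31 was higher and 2 lower (9.68% past the threshold), and 10 of the 95 were higher and none lower (10.5%). Among the snoRNAs, 17 held both boxes C and D and 26 the terminal ACA by their letters, and 31 neither. Of these, 2, 3 and 0 were higher and 1, 0 and 0 lower in Pool 1. In Pool 2, 1, 0 and 1 were higher and 1, 0 and 1 lower. No match here says only that these letters are not at those places. Beside the counts by host, length and letters, 1.48% of all genes were higher and 1.99% lower in Pool 1 against Control. In Pool 2 these shares were 5.2% and 1.01%. The counts describe the RNAs and were not tested.

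No host of an RNA past the threshold passed it in the same comparison. For 100 of the RNAs a host was in the table, 91 different genes in all. Of these 91 hosts, 5 were higher and none lower in Control than in Vehicle, against 1.7% and 3.41% of all genes. Against Control, none of the 91 was higher and 3 were lower in Pool 1, beside 1.48% and 1.99% of all genes. None passed in Pool 2, beside 5.2% and 1.01%. Host log2 fold changes against Control ran from -0.46 to 0.41 in Pool 1 and from -0.26 to 0.32 in Pool 2. Snx5, the host of Snord17, had -0.12 ± 0.09 in Pool 1 and -0.05 ± 0.09 in Pool 2 mice, and Kpna4, the host of Gm22009, had -0.13 ± 0.11 and -0.26 ± 0.11 (SE). Rcc1, the host of Snora73b, had 0.00 ± 0.10 in Pool 1. The hosts of the 7 called RNAs with a host in Pool 1 lay between -0.13 and 0.15, and none of them passed. A spliced message and the RNA released from its intron are separate molecules.

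**Figure D5:**
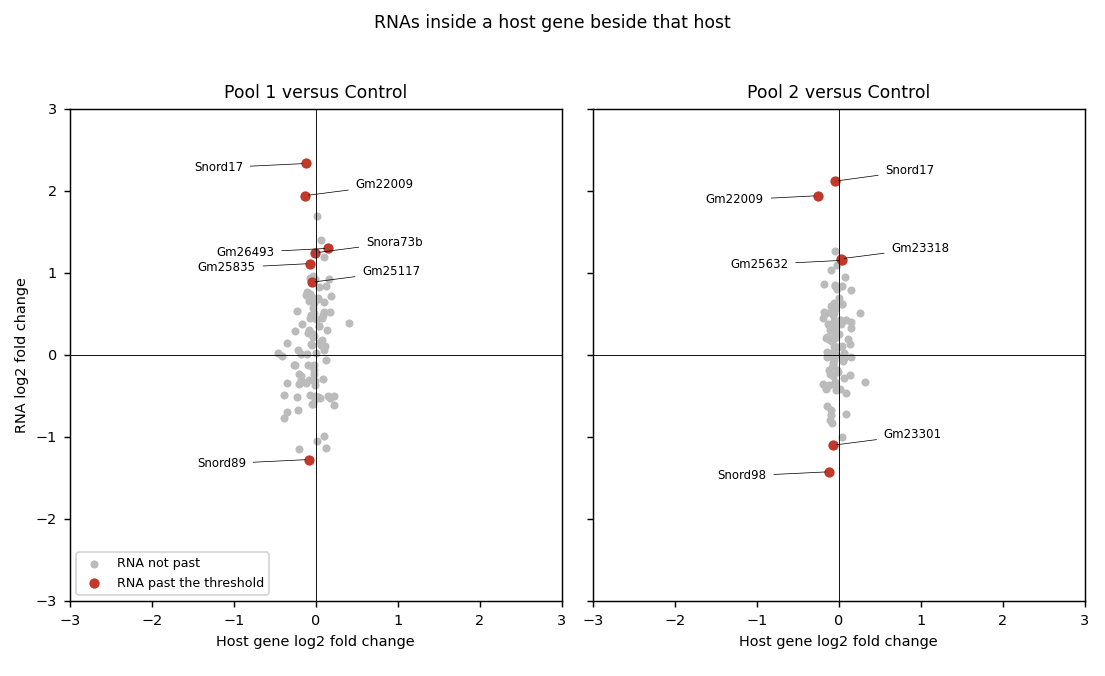
Log2 fold change of each RNA inside a host gene against that of its host, in Pool 1 versus Control and Pool 2 versus Control, with RNAs past the threshold in red and named. The hosts stay between -0.46 and 0.41 while the RNAs spread from -1.43 to 2.33.

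The genes of the proteins that carry these RNAs were counted in the same way. Over 10 lists with 93 genes, 1 was higher and 6 lower in Pool 1 than in Control, with a median log2 fold change of -0.08, against 1.48% and 1.99% of all genes, and 1 was higher and 1 lower in Pool 2, with a median of -0.10, against 5.2% and 1.01%. In Control against Vehicle 7 were higher and none lower, with a median of 0.09, against 1.7% and 3.41% of all genes. Of the 7 proteins of the 7SK particle and P-TEFb none passed, and Hexim1, Larp7 and Mepce had -0.09 ± 0.09, -0.04 ± 0.11 and 0.04 ± 0.09 in Pool 1 and -0.13 ± 0.09, -0.18 ± 0.11 and 0.00 ± 0.09 in Pool 2 mice (SE). Of the 8 Sm ring genes, Snrpd2 and Snrpe were lower in Pool 1 than in Control, by log2 fold changes of -0.34 ± 0.13 and -0.32 ± 0.15, and higher in Control than in Vehicle, by 0.31 ± 0.13 and 0.31 ± 0.15 (SE, unadjusted p = 0.0138, 0.0396, 0.0235 and 0.045, edgeR). Of the 6 box H/ACA protein genes, Nop10 was lower in Pool 1 than in Control by -0.32 ± 0.14 (SE, unadjusted p = 0.0311), and none of the 4 box C/D protein genes passed. The others lower in Pool 1 were Lsm2, Rpp30 and Snapc5, of U6 snRNA binding, RNase P and snRNA transcription. Gemin4, of the SMN complex that loads Sm rings, was higher by 1.16 ± 0.47 in Pool 1 and 1.13 ± 0.47 in Pool 2 mice (SE, unadjusted p = 0.0215 and 0.025). All of these had adjusted p values of 0.578 or more. Of 29 snoRNA host genes of the Snhg and ribosomal kind, 2 were lower in Pool 1 (Snhg5 and Snhg10), against 1.99% of all genes. None passed in Pool 2, against 6.22% of all genes in either direction. In Control against Vehicle 1 was higher (Snhg10), against 1.7%.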

How the data were processed

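The study's total RNA from mouse hippocampus was made into stranded, poly(A)-selected libraries and sequenced in single-end reads of 50 bases. The authors aligned the reads to GRCm38 (mm10) with STAR and deposited raw counts of reads per gene, with GENCODE release M20 named for the annotation. The counts are whole numbers without normalization. STAR's gene counting keeps reads with 1 best position, and the source does not say which strand column was used. FastQC 0.11.5 is named in the submitters' processing notes.

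From these counts, CPM and log2 CPM (prior count 2) were computed with TMM factors, and all 25190 genes were tested in 1 fit of the 4 groups with edgeR 4.0.16 (glmQLFit with robust estimation and glmQLFTest, R 4.3.3). P-values were adjusted by Benjamini-Hochberg over all genes. The threshold was a log2 fold change of 0.3 or more in size with an unadjusted p under 0.05. Exact permutation tests were two-sided and were run on a list of named RNAs, not on all 126. Near copies were found with blastn against the GENCODE M21 small RNA transcripts, plus strand, and positions and hosts come from the same release. The fit was tested on simulated data. Library totals of 20588280 to 25543939 make 3 counts equal to at most 0.146 CPM, and intervals cover counting error only. The chi-square per degree of freedom between replicates of a group was 8.23 to 66.8, where counting noise gives about 1, so none was a repeat.

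The RNAs, the lists and the tests were chosen with earlier results of these data known. Named RNAs are the 3 most abundant of each class, textbook RNAs, any with an adjusted p under 0.05 (there was none), and, among those past the threshold with at least 10 counts per library, the 5 higher and 5 lower with the smallest p against Control in each pool and 3 and 3 in the other comparisons. Alternatives were DESeq2 1.42.0, its size factors, scaling on protein-coding genes, filters at a mean of 10 counts and by filterByExpr, the default spread, only 2 groups, the replicate number as a block, 18 libraries (without Vehicle replicate 4 and Pool 2 replicate 1), each library left out, and members taken at a mean raw count of at least 10 or a sum of at least 10. DESeq2 on the 18 libraries was added after seeing the data.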

Additional observations from a re-analysis of the deposited data

Results flagged for a closer look

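Of 88 groups of 5 libraries, 8 held a value that stood apart from the other 4 libraries by Dixon's criterion at 95%, over 22 RNAs and class sums, where chance alone marks about 1 group in 20. Rny1 was at 14 CPM in Pool 1 replicate 1 and at 9.39 CPM in Pool 2 replicate 4, and Rny3 was at 4.81 CPM in Pool 1 replicate 1. Gm24265 was at 1.59 CPM in Pool 2 replicate 4. The snoRNAs summed to 30.3 CPM in Pool 1 replicate 1 and, on the low side, to 17.5 CPM in Pool 2 replicate 3. Gm22442 was at 1.05 CPM in Vehicle replicate 1 and Gm25082 at 1.99 CPM in Vehicle replicate 2.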

How the results depend on the processing

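The limits lie in depth and in single libraries. Most of the RNAs had few counts per library, and none passed adjustment over all genes, so at this depth a small difference in 1 RNA was not detectable. In the order Pool 1 against Control, Pool 2 against Control, Control against Vehicle, Pool 1 against Vehicle, Pool 2 against Vehicle and Pool 2 against Pool 1, 14, 13, 5, 5, 2 and 1 of the 126 RNAs were past the threshold. At a mean normalized count of at least 10 they were 8, 6, 3, 1, 0 and 0 of 26 RNAs, against 402, 969, 795, 795, 703 and 1133 of 16644 genes. At a mean raw count of at least 10 they were also 8, 6, 3, 1, 0 and 0 of 26 RNAs. With all members of a sum of at least 10 counts they were 25, 20, 10, 14, 10 and 9 of 277 RNAs. Of all 25190 genes, 876, 1566, 1285, 1345, 1181 and 1718 passed in the same fit. With filterByExpr, which kept 40 RNAs and 17293 genes, they were 6 in Pool 2 against Control, 3 in Control against Vehicle, 3 in Pool 1 against Vehicle and 0 in the last 2. Of the 17293 genes, 960, 821, 776, 723 and 1153 passed in these 5 comparisons. With only the 2 groups in the fit they were 3 in Pool 1 against Vehicle and 2 between the pools, where 1335 and 1542 of 25190 genes passed. Without Vehicle replicate 4 and Pool 2 replicate 1 (18 libraries) 8 passed in Control against Vehicle, where 1277 of 25190 genes did. DESeq2, on 20 or 18 libraries, gave 1 in Pool 2 against Vehicle, where 971 and 580 genes passed. The cause of these changes was not tested.

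Leaving out each library gave 11 to 18 in Pool 1 against Control, 11 to 15 in Pool 2 against Control, 0 to 9 in Control against Vehicle, 2 to 10 in Pool 1 against Vehicle, 2 to 5 in Pool 2 against Vehicle and 0 to 4 between the pools. Of all 25190 genes, 717 to 1249, 1129 to 1818, 955 to 1792, 1045 to 1638, 847 to 1453 and 1190 to 2067 passed in this order. Class medians moved beyond their spread under filters, which keep fewer RNAs. For misc_RNA they were 0.701 and 0.698 in Pool 1 against Control, 0.433 and 0.429 in Pool 2 against Control and -0.784 and -0.782 in Control against Vehicle at a mean normalized and a mean raw count of at least 10, and -0.606 with filterByExpr in the last. For scaRNA they were -0.213 and -0.212 in Control against Vehicle at these minimums, where misc_RNA and no longer scaRNA had the lowest median of the pair, and 1.219 and 0.924 in Pool 1 and Pool 2 against Control with filterByExpr, where the snoRNA median in Pool 2 was 0.004. With a library left out, the scaRNA median in Pool 1 against Control was 0.313 to 0.767, and the misc_RNA median was -0.045 to 0.486 in Pool 2 against Control and -0.629 to 0.035 in Control against Vehicle. For single RNAs, 1007 alternative values kept direction and call, 112 kept the direction but lost the call, and 0 reversed. This tally counts each omitted library for every comparison. A library of neither group compared changes only the shared spread, so the tally overstates how firm the calls were. The call of Gm26493 in Pool 1 against Control was lost on leaving out any of 13 libraries.

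The replicate numbers do not pair the libraries, since the correlations of same-numbered libraries ran from -0.321 to 0.277, 10 of 30 were over 0.1, and 1 of 20 libraries matched its own number best. With the replicate block, 3 RNAs passed in Control against Vehicle and 3 in Pool 1 against Vehicle, where 1053 and 1189 of 25190 genes did. The other 4 counts of RNAs stayed within 1.5 times.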
